A study of Mus musculus with 18 samples.

Results

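Skeletal muscle transcripts were followed in macrophage libraries from mouse skin wounds, through 33 genes of the contractile filaments, the calcium release machinery and the energy supply of striated muscle, out of 26149 genes listed for the wound fraction. The genes came from a list of names that was drawn up with earlier results of these data known. Where a gene had several transcripts, the one with the most reads stood for it. The wound fraction was made from dorsal skin at day 6 after injury by enzyme digestion, a 40 μm mesh and magnetic beads against F4/80, a macrophage surface protein. It gave 6 libraries from wild-type (WT) mice and 6 from mice with the T166A form of PPARg, a lipid-sensing nuclear receptor in which alanine takes the place of threonine. Bone marrow-derived macrophages (BMDM), grown for 7 days with 50 ng/ml M-CSF from C57BL/6J or PPARg T166A mice and not wounded, gave 3 libraries per genotype and served as a source without muscle fibres. The labels give no age or sex, do not tie replicates to separate animals or cultures, and describe the RNA extraction as one of differentiated adipocytes although every library is labelled as macrophages. The p-values therefore measure the spread between these libraries, which may be technical.

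Skeletal muscle fibres contract when myosin of the thick filament pulls on actin of the thin filament, and calcium bound by troponin opens the thin filament to myosin. Fast and slow fibres build the same sarcomere from different genes for myosin, troponin, myosin binding protein C and the calcium pump, while skeletal actin, titin and desmin occur in both. Mouse dorsal skin rests on a thin sheet of mostly fast skeletal muscle, the panniculus carnosus, and macrophages have no sarcomeres.

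The wound libraries held 29357354 to 38774475 gene counts and the BMDM libraries 40072513 to 44152639. Levels are counts scaled to a library total of 1000000 gene counts (CPM), and fold changes are T166A against WT from edgeR's quasi-likelihood fit, which also scales for composition. Lyz2, which encodes lysozyme of macrophages, averaged 5251 ± 373 CPM over the WT wound libraries and 4407 ± 163 CPM over the T166A ones (SD, n = 6 each), and 9 of 12 macrophage markers were lower in T166A, with a list median log2 fold change of -0.32. In BMDM, T166A replicate 3 stood apart. Its 12 fibroblast markers summed to 444.5 CPM, against 5.29 to 51.6 CPM in the WT libraries.

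The muscle genes were less abundant in T166A wound libraries. Of the 33 genes, all passed the filter on low counts, 21 (63.6%) were lower in T166A at an adjusted p under 0.05 by edgeR, 0 were higher, and 12 did not pass. Over all 15473 genes tested, 13.2% were lower and 12.7% higher by the same rule. In 14 of the 33 (42.4%) every T166A library lay below every WT library, which held for 4.08% of all genes tested. The reverse, every T166A library above every WT library, held for 0 of the 33 and for 8.83% of all genes tested. The median log2 fold change was -0.85 over the 33 genes and 0.01 over all genes tested. Log2 fold changes were negative for 31 of the 33, and 13 genes were called with at least a 2-fold fall, as were 1.11% of all genes. Because the list was chosen with earlier results known, these comparisons with all genes describe the list. They are not an independent test of it. In RNA from a whole fraction, fewer muscle fibres or fragments and less muscle RNA per fibre cannot be told apart.

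**Figure D1:**
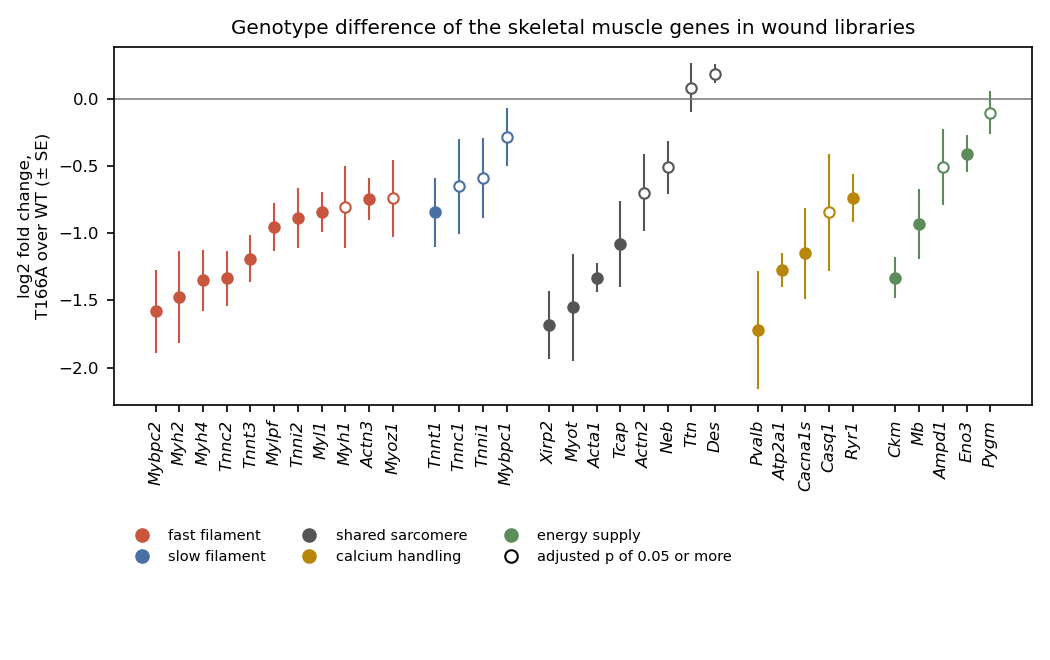
Log2 fold change (T166A over WT, with its standard error) of each of the 33 muscle genes in the wound fraction, grouped by role. The values run from -1.72 for Pvalb to 0.19 for Des, and 21 genes passed the edgeR threshold, all of them on the side of lower values.

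The level of the muscle genes was small in every wound library. Summed over the 32 genes other than Des, it came to 114 to 154 CPM (3635 to 5525 reads) in WT libraries and to 63.8 to 77.5 CPM (2280 to 2922 reads) in T166A libraries, with no overlap. The groups were also apart with both Des and Acta1 left out, at 82.5 to 111 CPM in WT and 49.8 to 58.6 CPM in T166A libraries. Des was set aside because smooth muscle and pericytes make it too. WT replicate 3 was the highest WT library for 17 of the 33 genes and WT replicate 5 for 10, and among T166A libraries replicates 2, 3 and 5 were highest for 9, 8 and 7 genes. With each library left out in turn, 20 to 24 of the 33 genes were lower. In BMDM, which have no muscle fibres, the 32 genes other than Des summed to 18.8 to 22.3 CPM in WT libraries. In T166A BMDM libraries the sum was 16 to 33.1 CPM. The part of such a background in the wound sums was not tested.

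**Figure D2:**
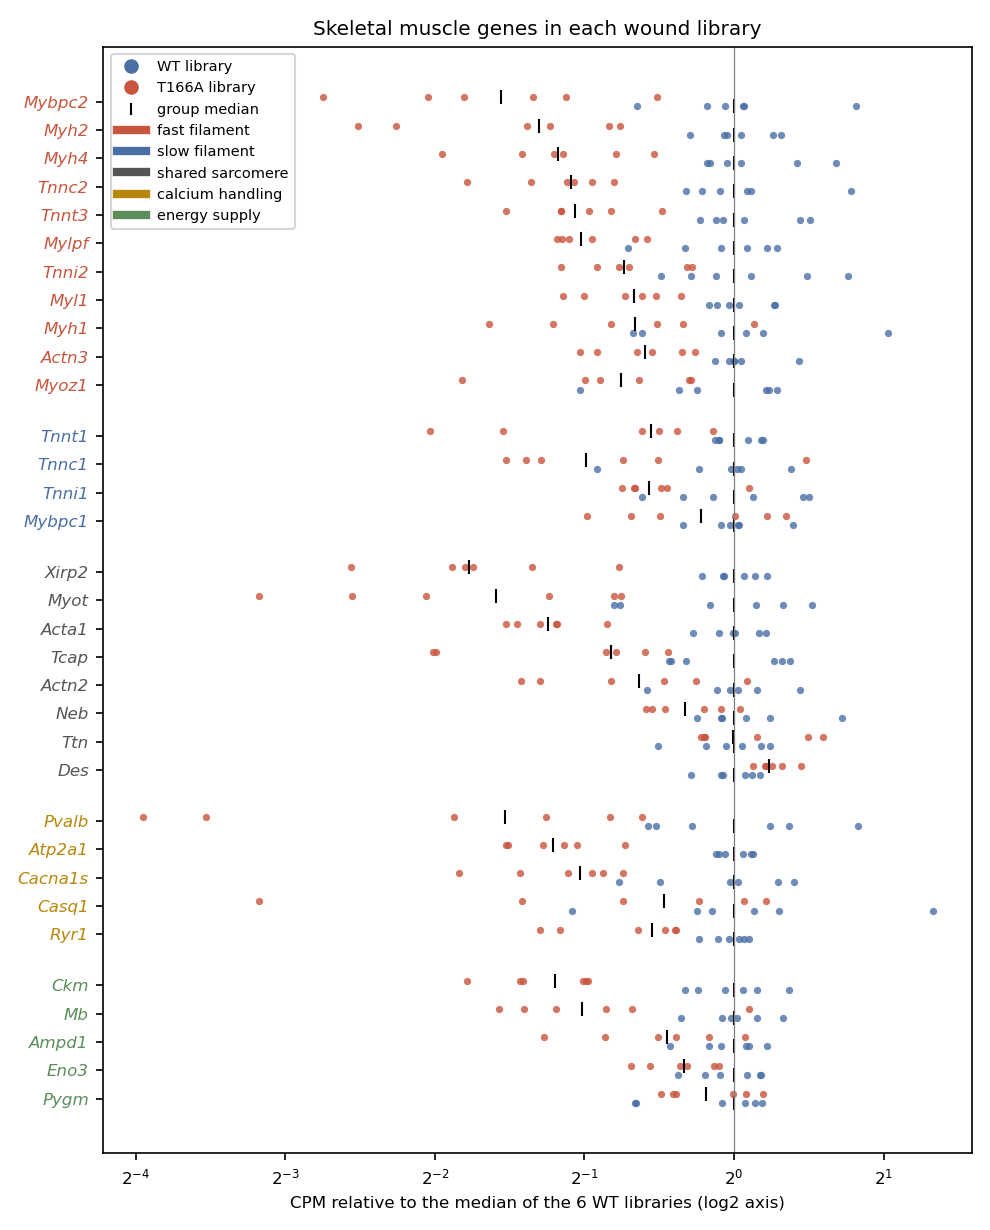
CPM of the muscle genes in each of the 12 wound libraries, with 1 point per library. Before this division, Acta1 was at 31.8 to 44.5 CPM in WT and 13.4 to 21.4 CPM in T166A libraries, and its points do not mix, whereas those of Ttn and Pygm do.

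Acta1 (chromosome 8, 123891758 to 123894775), the actin of skeletal muscle thin filaments, carried the most reads among the genes that fell. WT libraries held 31.8 to 44.5 CPM (median 38.4) and T166A libraries 13.4 to 21.4 CPM (median 16.2), from 1012 to 1727 and 491 to 805 reads. Every T166A library lay below every WT library. The fall was 2.51-fold (log2 fold change -1.33, SE 0.11, adjusted p = 7.37e-08 by edgeR). Actins are close relatives in sequence and their reads may be shared by the counting. Acta2, the smooth muscle actin, went the other way, from 82.4 ± 20.6 to 159 ± 18.4 CPM, and in BMDM, with 4653 to 5510 CPM of the cytoplasmic actin gene Actb, Acta1 stayed at or below 0.79 CPM.

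Ckm and Atp2a1 fell with it. Ckm (chromosome 7, 19411094 to 19421583) encodes the creatine kinase that buffers ATP in muscle fibres. It was at 5.9 to 9.57 CPM (median 7.42) in WT and 2.15 to 3.76 CPM (median 3.24) in T166A libraries, without overlap (2.52-fold lower, log2 fold change -1.33, SE 0.15, adjusted p = 1.21e-06 by edgeR). Atp2a1 (chromosome 7, 126445858 to 126463103) encodes SERCA1, the calcium pump of fast fibres. It was at 9.67 to 11.5 CPM (median 10.5) in WT and 3.65 to 6.34 CPM (median 4.55) in T166A libraries, also without overlap (2.41-fold lower, log2 fold change -1.27, SE 0.13, adjusted p = 1.57e-07 by edgeR). Xirp2 (chromosome 2, 67446000 to 67526620), an actin-binding protein gene of striated muscle, had the largest fall among genes of at least 2 CPM in the WT median. It went from 1.89 to 2.55 CPM (median 2.19) to 0.372 to 1.28 CPM (median 0.641), a 3.21-fold fall without overlap (adjusted p = 2.72e-05 by edgeR).

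Promoters of these muscle genes are shown for 3 that fell without overlap and for Des, which did not fall, since muscle genes are known for E-box, MEF2 and CArG motifs near their start. Each is the 250 bases before a start site from RefSeq (GRCm38.p6), written on the gene's strand, with motif matches in capitals. That start site need not be the outermost base of the gene. The windows of Xirp2 and Atp2a1 reach into the gene coordinates given above. CAGCTG is an E-box favoured by MyoD family factors, and CArG boxes and MEF2 sites are A and T rich motifs bound by SRF and MEF2 factors.
Acta1, chr8:123894776-123895025 (minus strand), CAGCTG and a CArG match: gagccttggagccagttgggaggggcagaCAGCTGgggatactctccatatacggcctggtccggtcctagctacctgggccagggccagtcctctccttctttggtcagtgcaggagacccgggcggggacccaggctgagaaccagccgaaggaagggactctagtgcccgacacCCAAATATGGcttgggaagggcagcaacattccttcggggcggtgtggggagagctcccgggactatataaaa
Ckm, chr7:19410844-19411093 (plus strand), CAGCTG: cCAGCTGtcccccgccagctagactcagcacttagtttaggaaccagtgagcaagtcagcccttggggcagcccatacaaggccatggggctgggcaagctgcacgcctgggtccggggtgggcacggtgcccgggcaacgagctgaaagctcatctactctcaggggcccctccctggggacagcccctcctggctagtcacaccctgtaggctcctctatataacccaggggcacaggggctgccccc
Xirp2, chr2:67445752-67446001 (plus strand), a MEF2 match: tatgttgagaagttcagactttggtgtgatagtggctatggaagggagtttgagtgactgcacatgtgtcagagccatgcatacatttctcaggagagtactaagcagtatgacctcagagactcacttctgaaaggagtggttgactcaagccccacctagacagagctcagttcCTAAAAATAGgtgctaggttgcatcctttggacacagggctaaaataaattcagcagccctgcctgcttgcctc
Des, chr1:75360042-75360291 (plus strand), CAGCTG: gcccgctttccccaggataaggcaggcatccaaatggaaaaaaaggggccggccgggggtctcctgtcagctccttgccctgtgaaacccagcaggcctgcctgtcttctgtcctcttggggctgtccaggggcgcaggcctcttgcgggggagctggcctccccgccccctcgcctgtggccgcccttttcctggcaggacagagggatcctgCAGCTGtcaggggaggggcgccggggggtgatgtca
The CAGCTG in the Des window shows that the motif also stood before a gene that did not fall. Among windows not shown, that of Atp2a1 held CAGCTG. The window of Tnnc2, which also fell without overlap, had 0 matches to CAGCTG, MEF2 or CArG, as had that of Tnnc1.

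Promoter windows were given for 25 of the 33 genes, in 29 windows, and both strands were searched. CAGCTG, which reads the same on both strands and is itself a case of CANNTG, was in 15 of 29 windows (51.7%), against 13% of all 32851 windows. The windows with CAGCTG belonged to 13 genes, among them Myh4, Myl1, Mylpf, Casq1, Cacna1s, Mb, Mybpc1, Tnni1 and Pygm. The general E-box CANNTG was in 86.2% of these windows and 66.2% of all windows. The MEF2 motif was in 17.2% (Myh1, Myh4, Pvalb, Ttn and Xirp2) against 2.92%, and the CArG box in 6.9% (Acta1 and Myh4) against 1.47%. These shares describe letters in a window and were not set against the fold changes by a test.

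Of the fast fibre filament genes, 9 of 11 were lower, 6 of them without overlap, with log2 fold changes from -1.58 to -0.74 and a median of -0.95. Their summed level was 30.3 to 46.9 CPM in WT and 15.5 to 19.8 CPM in T166A libraries. Over all genes tested, 13.2% were lower and 4.08% had every T166A library below every WT library. These shares also stand beside the counts of the classes that follow. The heavy chains are the motor proteins, here of the 3 adult fast types. Myh4 (chromosome 11, 67237812 to 67260447), the IIb form, was at 2.43 to 4.43 CPM (median 2.76) in WT and 0.712 to 1.91 CPM (median 1.22) in T166A libraries, without overlap (log2 fold change -1.35, SE 0.23, adjusted p = 9.39e-05 by edgeR). Myh2 (chromosome 11, 67171027 to 67197517), the IIa form, was at 0.695 to 1.06 CPM (median 0.853) and 0.15 to 0.503 CPM (median 0.345), also without overlap but from only 24 to 36 and 5 to 18 reads (log2 fold change -1.48, SE 0.34, adjusted p = 0.0024 by edgeR). Myh1 (chromosome 11, 67200102 to 67224577), the IIx form, was at 1.12 to 3.64 CPM (median 1.78) and 0.573 to 1.95 CPM (median 1.13). Its groups overlapped and it missed the threshold (log2 fold change -0.81, SE 0.30, adjusted p = 0.0538 by edgeR, 0.0179 to 0.195 over its alternatives). The 3 genes lie side by side and are near-identical in places, so the split of reads between them is uncertain.

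Light chains, which stiffen and tune the myosin neck, fell as well. Myl1 (chromosome 1, 66924295 to 66947932) was at 4.24 to 5.76 CPM (median 4.76) in WT and 2.15 to 3.73 CPM (median 2.99) in T166A libraries, without overlap (1.79-fold lower, adjusted p = 0.000215 by edgeR). Mylpf (chromosome 7, 127208848 to 127214288), the regulatory light chain of fast fibres, was at 2.58 to 5.14 CPM (median 4.21) and 1.86 to 2.81 CPM (median 2.07). The lowest WT library lay within the T166A range, and the fall was 1.94-fold (adjusted p = 0.000356 by edgeR).

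All 3 fast troponin genes were lower. Tnnt3 (chromosome 7, 142498771 to 142516213), the tropomyosin-binding subunit, was at 4.36 to 7.26 CPM (median 5.1) in WT and 1.78 to 3.65 CPM (median 2.45) in T166A libraries, without overlap (log2 fold change -1.19, SE 0.17, adjusted p = 2.05e-05 by edgeR). Tnni2 (chromosome 7, 142441816 to 142444410), the inhibitory subunit, was at 1.82 to 4.33 CPM (median 2.55) and 1.15 to 2.1 CPM (median 1.53), with overlap (log2 fold change -0.89, SE 0.22, adjusted p = 0.00455 by edgeR). Tnnc2 (chromosome 2, 164777161 to 164779734), the calcium-binding subunit, was at 2.63 to 5.65 CPM (median 3.29) and 0.955 to 1.89 CPM (median 1.54), without overlap (log2 fold change -1.34, SE 0.21, adjusted p = 4.15e-05 by edgeR). Exons of Ube2c, a cell cycle gene on the opposite strand, cover 592 bases (74%) of the Tnnc2 exons. Without strand, their reads cannot be told apart. Ube2c rose in the same libraries, from 5.2 ± 0.832 to 7.73 ± 0.795 CPM. In BMDM, 5 of 6 libraries had at most 2 Tnnc2 reads while Ube2c ranged from 6.48 to 22.4 CPM over all 6. The part of shared reads in the Tnnc2 value was not tested.

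The remaining fast genes cross-link or brace the filaments. Mybpc2 (chromosome 7, 44501699 to 44524715), fast myosin binding protein C, had the largest fall of the class, from 1.25 to 3.46 CPM (median 1.96) to 0.292 to 1.38 CPM (median 0.667), with overlap (2.99-fold lower, adjusted p = 0.000517 by edgeR). Actn3 (chromosome 19, 4861216 to 4877909), the alpha-actinin of fast Z-discs, was at 4 to 5.89 CPM (median 4.37) in WT and 2.14 to 3.64 CPM (median 2.89) in T166A libraries, without overlap (1.68-fold lower, adjusted p = 0.000873 by edgeR). Myoz1 (chromosome 14, 20649102 to 20656540), a calcineurin-binding Z-disc protein gene, was at 0.723 to 1.81 CPM (median 1.48) and 0.419 to 1.21 CPM (median 0.875). It overlapped and did not pass (log2 fold change -0.74, SE 0.29, adjusted p = 0.062 by edgeR, 0.0219 to 0.134 over its alternatives).

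Slow fibre filament genes had negative values too, but 1 of 4 passed, with log2 fold changes from -0.84 to -0.29 and a median of -0.62. Tnnt1 (chromosome 7, 4504569 to 4515975), slow troponin T, was at 1.79 to 2.24 CPM (median 1.96) in WT and 0.479 to 1.78 CPM (median 1.33) in T166A libraries (log2 fold change -0.84, SE 0.26, adjusted p = 0.0167 by edgeR). Its groups did not overlap, with the highest T166A library just under the lowest WT library. Tnni1 (chromosome 1, 135783033 to 135810989), slow troponin I, was at 0.581 to 1.26 CPM (median 0.893) and 0.531 to 0.957 CPM (median 0.6), with a log2 fold change of -0.59 (SE 0.30, adjusted p = 0.151 by edgeR). Tnnc1 (chromosome 14, 31208312 to 31211729), the troponin C of slow and cardiac muscle, was at 0.5 to 1.23 CPM (median 0.943) and 0.327 to 1.31 CPM (median 0.474), with a log2 fold change of -0.65 (SE 0.35, adjusted p = 0.186 by edgeR). Mybpc1 (chromosome 10, 88518279 to 88605229), slow myosin binding protein C, was at 1.82 to 3.03 CPM (median 2.31) and 1.17 to 2.93 CPM (median 1.98), with a log2 fold change of -0.29 (SE 0.22, adjusted p = 0.354 by edgeR). The last 3 overlapped between genotypes.

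Levels of different genes can be compared only per length, so they were also given as CPM per kilobase of transcript (RPKM). On this scale Acta1 was the most abundant of the genes in WT libraries, with a median of 26.6 RPKM, followed by Des at 11, Mylpf at 6.44, Tnnt3 at 4.86, Tnnc2 at 4.7 and Myl1 at 4.4. In T166A libraries Des led with 12.9 RPKM and Acta1 had 11.2. Ttn was lowest in WT libraries, at 0.0285 RPKM, and had 0.0284 in T166A libraries. Next in the WT order came Neb at 0.103 (0.082 in T166A), Cacna1s at 0.128 (0.0629), Myh2 at 0.14 (0.0568), Xirp2 at 0.183 (0.0537) and Ryr1 at 0.228 (0.156). For long transcripts such as Ttn, Neb and Ryr1, the RPKM value spreads few reads over many bases.

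**Figure D3:**
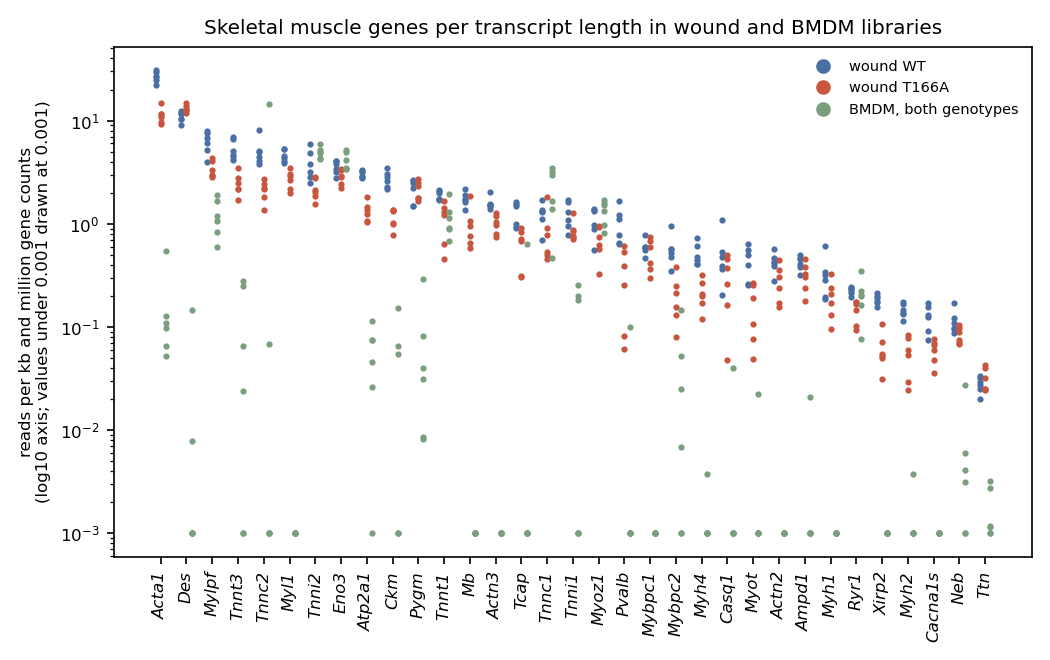
Level per length (RPKM, log axis) of the muscle genes in each wound library, by genotype, and in each BMDM library, both genotypes together. Values under the floor of the axis are drawn at that floor. In the wound fraction, Acta1 has medians (not drawn) of 26.6 in WT and 11.2 in T166A libraries, and Des of 11 and 12.9.

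The fast and slow forms of each protein were set side by side per library. The slow share of troponin T (Tnnt1 over Tnnt1 and Tnnt3, in RPKM) was 23.0 to 33.7% (median 26.0%) in WT and 11.5 to 49.8% (median 34.2%) in T166A libraries. That of troponin I was 17.1 to 34.3% (median 25.0%) and 21.2 to 38.5% (median 28.6%), and that of troponin C 13.6 to 26.0% (median 19.2%) and 15.6 to 49.8% (median 25.8%). Fast forms thus took most of the troponin reads in the median library of both genotypes. BMDM, which have no muscle fibres, held some of the same genes. In WT and T166A BMDM the means were 3.53 and 3.69 CPM for Tnni2, against 2.82 and 1.62 CPM in the wound fraction. They were 1.88 and 1.27 CPM for Tnnc1 (wound 0.898 and 0.602) and 1.02 and 1.42 CPM for Tnnt1 (wound 2.00 and 1.18). Tnnt3 reached 0.295 CPM and Tnni1 0.19 CPM in the highest BMDM library. The part of such a background in these shares was not tested. Mybpc1 took 36.6 to 63.4% (median 54.1%) of the myosin binding protein C signal in WT and 43.8 to 83.9% (median 76.1%) in T166A libraries. Myh7, the slow heavy chain, took 2.88 to 10.4% (median 4.85%) and 2.04 to 18.3% (median 11.3%) of the signal of Myh1, Myh2, Myh4 and Myh7. All 5 of these medians were higher in T166A, and in all 5 families the genotypes overlapped. For the calcium pump, Atp2a2 took 95.3 to 96.6% (median 95.9%) of the signal of Atp2a1 and Atp2a2 in WT and 97.2 to 98.5% (median 98.2%) in T166A libraries, without overlap, though many cell types make Atp2a2. With transcripts summed per gene, the median slow share of troponin T was 7.65% in WT and 11.1% in T166A libraries and that of troponin I 40.1% and 44.4%. These levels thus depend on how transcripts are counted. Tnnt3 had 17 transcripts listed and Tnnt1 had 4, while Tnni1 had 2 and Tnni2 had 1. The sums were still divided by the length of 1 transcript, and a read may be counted for several transcripts. No test was made of the difference between fast and slow genes.

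**Figure D4:**
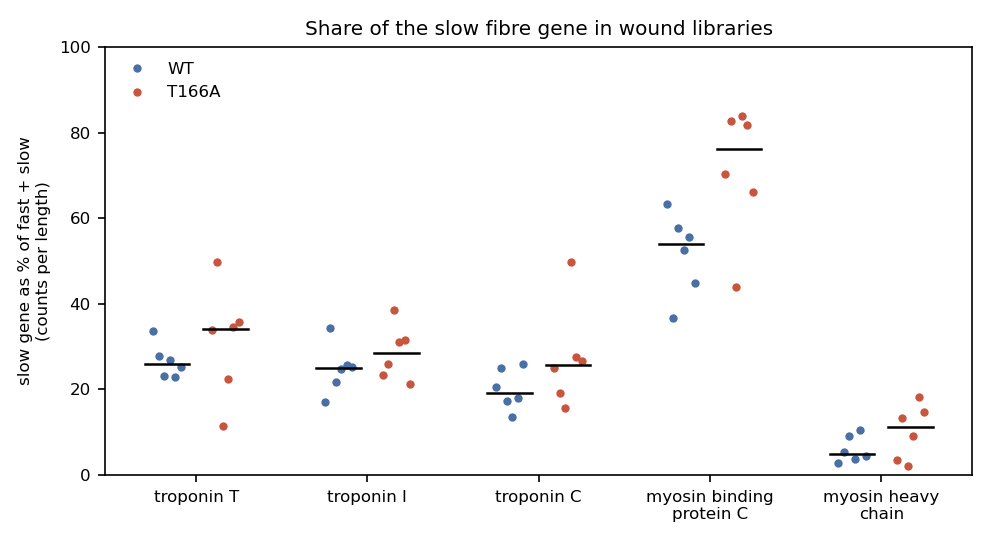
Slow share (percent of the RPKM of fast and slow forms together) of each protein family in each wound library. The T166A points spread more widely than the WT points for troponin T, at 11.5 to 49.8% against 23.0 to 33.7%, and the genotypes overlap in all troponin families.

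Slow fibre genes outside the 33 moved in both directions, with 3 of 7 tested lower and 1 higher. Myl2, the slow regulatory light chain, fell from 0.794 ± 0.282 to 0.298 ± 0.0814 CPM (log2 fold change -1.49, SE 0.35, adjusted p = 0.0025 by edgeR), beside -0.95 for its fast counterpart Mylpf. Myoz2 fell with a log2 fold change of -1.51 (adjusted p = 0.0241 by edgeR), beside -0.74 for Myoz1. Casq2, the calsequestrin of slow and cardiac muscle, rose from 2.34 ± 0.703 to 4.21 ± 1.13 CPM (log2 fold change 0.77, adjusted p = 0.00668 by edgeR). Atp2a2, the slow and housekeeping calcium pump, fell from 406 ± 28.6 to 385 ± 15.3 CPM (adjusted p = 0.0136 by edgeR).

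Sarcomere genes used by both fibre types divided into those that fell and those that did not: 4 of 8 were lower (Acta1, Tcap, Xirp2 and Myot), 3 of them without overlap. Tcap (chromosome 11, 98383811 to 98384953), which caps titin at the Z-disc, was at 0.872 to 1.53 CPM (median 1.18) in WT and 0.292 to 0.868 CPM (median 0.667) in T166A libraries, and the ranges nearly met (log2 fold change -1.08, SE 0.32, adjusted p = 0.0142 by edgeR). Myot, which encodes the Z-disc protein myotilin, was at 0.566 to 1.42 CPM (median 0.986) and 0.109 to 0.584 CPM (median 0.328), with a small overlap (log2 fold change -1.55, SE 0.40, adjusted p = 0.00539 by edgeR). Ttn (chromosome 2, 76703980 to 76982557), the molecular spring, was at 2.01 to 3.38 CPM (median 2.86) and 2.46 to 4.32 CPM (median 2.85), mixed between genotypes (log2 fold change 0.08, SE 0.18, adjusted p = 0.783 by edgeR).

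Neb (chromosome 2, 52136640 to 52338798), the thin filament ruler, was at 1.95 to 3.82 CPM (median 2.31) in WT and 1.54 to 2.37 CPM (median 1.84) in T166A libraries, with overlap (log2 fold change -0.51, SE 0.19, adjusted p = 0.0544 by edgeR, 0.0314 to 0.172 over its alternatives). Actn2 (chromosome 13, 12269426 to 12340732), the alpha-actinin of all muscle fibres and heart, was at 0.849 to 1.73 CPM (median 1.27) and 0.475 to 1.35 CPM (median 0.818), also with overlap (log2 fold change -0.70, SE 0.29, adjusted p = 0.0795 by edgeR, 0.0249 to 0.173 over its alternatives). Des (chromosome 1, 75360292 to 75368579), the intermediate filament of muscle cells, was at 27.2 to 37.4 CPM (median 33.2) in WT and 36.2 to 45.2 CPM (median 39) in T166A libraries. Its T166A libraries were mostly higher, with a narrow overlap, and the call missed the threshold (log2 fold change 0.19, SE 0.07, adjusted p = 0.0527 by edgeR, 0.0253 to 0.133 over its alternatives). Smooth muscle also makes desmin, and 8 of 10 smooth muscle markers rose in T166A, with sums of 223 to 411 CPM in WT and 524 to 655 CPM in T166A libraries. Their part in the Des value was not tested.

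Calcium handling genes had the lowest class median, -1.15, and 4 of 5 were lower, 3 without overlap. Pvalb (chromosome 15, 78191112 to 78206400), the calcium buffer that speeds relaxation in fast fibres, had the largest fall of all 33, from 0.617 to 1.64 CPM (median 0.919) to 0.0594 to 0.598 CPM (median 0.318). This rested on 21 to 48 reads per WT and 2 to 20 per T166A library (log2 fold change -1.72, SE 0.44, adjusted p = 0.00523 by edgeR). Ryr1 (chromosome 7, 29003340 to 29125179), the calcium release channel, was at 2.98 to 3.77 CPM (median 3.51) and 1.42 to 2.68 CPM (median 2.4), without overlap (log2 fold change -0.74, SE 0.18, adjusted p = 0.00289 by edgeR). Its voltage sensor gene Cacna1s (chromosome 1, 136052806 to 136119822) was at 0.47 to 1.06 CPM (median 0.801) and 0.223 to 0.479 CPM (median 0.393), where the ranges met (log2 fold change -1.15, SE 0.34, adjusted p = 0.0134 by edgeR). Casq1 (chromosome 1, 172209894 to 172219895), which stores calcium in fast fibres, was at 0.378 to 2.01 CPM (median 0.802) and 0.0888 to 0.929 CPM (median 0.581), with wide overlap (log2 fold change -0.85, SE 0.43, adjusted p = 0.164 by edgeR). Atp2a1, described above, shares 763 bases (21.9%) of its exons with Rabep2 on the opposite strand, which rose from 9.97 ± 0.49 to 12.8 ± 1.28 CPM.

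Of the energy genes, 3 of 5 were lower, 1 of them (Ckm) without overlap, and a median of -0.51. Mb (chromosome 15, 77015487 to 77050668), the oxygen store myoglobin of oxidative fibres and heart, was at 1.43 to 2.3 CPM (median 1.83) in WT and 0.615 to 1.96 CPM (median 0.904) in T166A libraries, with overlap (log2 fold change -0.93, SE 0.26, adjusted p = 0.0101 by edgeR). Eno3 (chromosome 11, 70653125 to 70662513), the muscle enolase of glycolysis, was at 4.36 to 6.4 CPM (median 5.64) and 3.49 to 5.25 CPM (median 4.46), a 1.33-fold fall with overlap (adjusted p = 0.0303 by edgeR, 0.0151 to 0.0766 over its alternatives). It lost its call without T166A replicate 1 or 5 or WT replicate 3, 4 or 6. Pygm (chromosome 19, 6384408 to 6398464), muscle glycogen phosphorylase, mixed between genotypes, at 4.27 to 7.7 CPM (median 6.75) and 4.82 to 7.73 CPM (median 5.93), with a log2 fold change of -0.11 (SE 0.16, adjusted p = 0.673 by edgeR). Ampd1 (chromosome 3, 103073897 to 103099720), the AMP deaminase of muscle, was at 0.752 to 1.18 CPM (median 1.01) and 0.419 to 1.06 CPM (median 0.741), with a log2 fold change of -0.51 (SE 0.28, adjusted p = 0.198 by edgeR).

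Further skeletal muscle genes were lower about as often as they were higher. Of 102 listed, 75 were tested, 13 (17.3%) were lower and 12 (16%) higher, against 13.2% and 12.7% of all genes, with a median of -0.00. Those that fell included Csrp3, a muscle LIM protein gene (0.852 ± 0.106 to 0.218 ± 0.188 CPM, log2 fold change -2.03, SE 0.45, adjusted p = 0.00146 by edgeR). Jsrp1, a protein gene of the calcium release complex, fell from 0.908 ± 0.233 to 0.287 ± 0.199 CPM, and Mylk2, the skeletal myosin light chain kinase gene, from 0.897 ± 0.41 to 0.427 ± 0.236 CPM. The Z-disc genes Mypn and Synpo2l had log2 fold changes of -1.78 and -1.59. Of the tropomyosins, which smooth muscle and other cells also make, Tpm1 rose from 162 ± 14.2 to 208 ± 17.1 CPM and Tpm2 from 27 ± 5.03 to 39.6 ± 3.45 CPM. Pdlim3 rose from 2.37 ± 0.459 to 4.65 ± 0.913 CPM, and Jph2, a junction protein gene of striated and smooth muscle, from 5.3 ± 1.9 to 11.3 ± 2.15 CPM.

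Of 9 further energy and glucose genes tested, 4 were higher and 1 lower. Cox8b, a cytochrome oxidase subunit gene of muscle, heart and brown fat, rose from 0.393 ± 0.208 to 2.28 ± 0.554 CPM (log2 fold change 2.46, SE 0.30, adjusted p = 2.23e-06 by edgeR). Slc2a4, the insulin-responsive glucose transporter of muscle and fat, rose from 1.16 ± 0.457 to 3.57 ± 1.08 CPM (log2 fold change 1.54, SE 0.26, adjusted p = 0.000155 by edgeR). Adipocytes share these genes, and 9 of 10 white and 7 of 10 brown adipocyte markers tested were higher in T166A. Ucp1 went from 2.2 ± 0.553 to 23.3 ± 11.4 CPM and Adipoq from 0.883 ± 0.349 to 10.2 ± 2.3 CPM. The brown adipocyte list summed to 11.1 to 22.3 CPM in WT and 35.2 to 76.5 CPM in T166A libraries, and its part in Cox8b was not tested.

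Genes of forming muscle moved in both directions. Myh3, the embryonic myosin heavy chain, rose from 0.539 ± 0.16 to 1.28 ± 0.388 CPM (log2 fold change 1.16, SE 0.31, adjusted p = 0.00701 by edgeR), while the embryonic light chain gene Myl4 was at 1.43 ± 0.311 and 1.07 ± 0.225 CPM (adjusted p = 0.133 by edgeR). Myod1, a factor of committed myoblasts, fell from 2.71 ± 0.848 to 1.77 ± 0.643 CPM (log2 fold change -0.70, adjusted p = 0.0318 by edgeR), and Mef2c, also made by macrophages, from 21.5 ± 2.64 to 16.9 ± 3.12 CPM. Dmd, the dystrophin gene, rose from 5.46 ± 1.02 to 8.53 ± 1.43 CPM. Myog, the factor of differentiating myocytes, was at 0.462 ± 0.22 and 0.73 ± 0.271 CPM and did not pass (adjusted p = 0.314 by edgeR). Pax7, the stem cell factor of muscle, was at 0.387 ± 0.347 and 0.205 ± 0.182 CPM, too low to be tested. Myh8 (0.396 ± 0.352 and 0.177 ± 0.0533 CPM) and Myh6 (0.0809 ± 0.0736 and 0.201 ± 0.171 CPM) were not tested either. Myh7 and Myh7b did not pass, at adjusted p = 0.666 by edgeR and 0.394. At the neuromuscular junction, 0 of 4 genes tested passed, among them Musk (adjusted p = 0.248 by edgeR) and Colq (0.179 by the same fit).

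**Figure D5:**
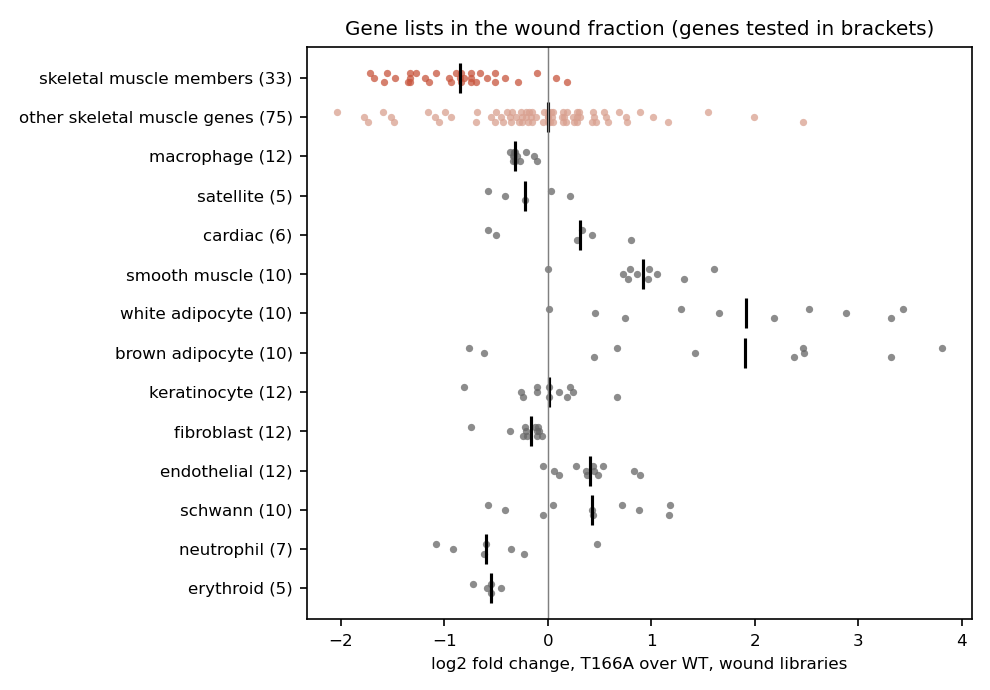
Log2 fold changes (T166A over WT) in the wound fraction by gene list, 1 point per gene tested. The medians are -0.85 for the 33 muscle genes, -0.32 for macrophage, 0.91 for smooth muscle and 0.41 for endothelial markers.

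Markers of other cells in the fraction moved in several directions beside the muscle genes. Endothelial markers were higher for 8 of 12 (Pecam1 from 369 ± 52.2 to 565 ± 76.8 CPM), and neutrophil markers were lower for 3 of 7 (Csf3r from 196 ± 13.4 to 163 ± 26 CPM). Keratinocyte markers had a median of 0.01 and fibroblast markers one of -0.16, with 1 of 12 lower and 0 higher in each. Krt14 was at 68.7 ± 22.5 and 85.8 ± 17.8 CPM and Col3a1 at 3859 ± 575 and 3870.3 ± 788 CPM, and neither passed. Schwann cell markers were higher for 5 and lower for 2 of 10, with Pmp22 lower, and of 5 red cell markers 1 was lower, with Hba-a1 not called. Cardiac markers, of which 6 of 9 were tested, had 1 lower (Mybpc3, from 7.31 ± 0.982 to 5.21 ± 0.681 CPM), and of 5 muscle stem cell markers tested, 1, Sdc4, was lower. The F4/80 gene Adgre1, whose product the beads bind, fell from 856 ± 67.3 to 707 ± 37.9 CPM (log2 fold change -0.36, adjusted p = 7.99e-05 by edgeR). The part of the fraction's make-up in the muscle values was not tested.

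In BMDM, 8 of the 33 genes passed the filter on low counts (Mylpf, Tnni2, Myoz1, Tnnt1, Tnnc1, Atp2a1, Ryr1 and Eno3). By edgeR 0 of the 8 were called, where 0.0685% of 13139 genes tested were called, 0.0609% as higher and 0.00761% as lower, and 0 had an unadjusted p under 0.05 against 12.8% of all genes. DESeq2 and limma-voom also called 0. With so few edgeR calls over all genes, 0 of 8 does not show that these genes were unchanged. Their log2 fold changes were negative for 5 and ran from -2.04 for Atp2a1 to 0.40 for Tnnt1. Eno3 was at 6.09 and 6.67 CPM in WT and T166A (means of 3), Tnni2 at 3.53 and 3.69 CPM and Ryr1 at 3.85 and 2.38 CPM. In the wound fraction, a table fitted separately, the means in WT and T166A were 5.56 and 4.44 CPM for Eno3, 2.82 and 1.62 CPM for Tnni2 and 3.45 and 2.19 CPM for Ryr1. In BMDM, Atp2a1 was at 0.306 and 0.083 CPM, from 11 to 16 and 0 to 7 reads. It alone of the 8 had every T166A library below every WT library (adjusted p = 0.559 by edgeR). Ryr1 had a log2 fold change of -0.82 in BMDM (SE 0.38, adjusted p = 0.416 by edgeR), beside -0.74 in the wound fraction. Of the other 25 genes, 8 had 0 reads in all 6 BMDM libraries, which does not exclude a level too low to be sampled. Of the 33, 12 had at most 2 reads in all 6 together.

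The fall in the wound fraction was seen both in genes that BMDM lacked and in genes that BMDM also held. Of the 12 with at most 2 BMDM reads, 8 were lower in T166A wound libraries, with a median log2 fold change of -0.89. Over all genes tested in the wound fraction, 13.2% were lower. Of the 8 that passed in BMDM, 6 were lower in the wound fraction, with a median of -0.79, and of the 25 that did not pass, 15 were, with a median of -0.93. Several low genes had their highest BMDM value in T166A replicate 3. Tnnc2 had 411 reads (10.1 CPM) there and at most 2 reads in each of the other 5 libraries. Des had 18 reads against 0 to 1 in the others, Neb 25 against 0 to 6, Pygm 34 against 1 to 10 and Acta1 32 against 3 to 8. This is the library with the high fibroblast markers. Of the 33 genes, 0 were called in BMDM with it or without it, and Tnnc2 itself did not pass the filter with all 6 libraries.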

How the data were processed

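The authors deposited raw counts of RNA sequencing reads for 18 libraries, with 1 line per RefSeq transcript and separate tables for the wound fraction and BMDM. They used FastQC 0.12.1, cutadapt 4.4, HISAT2 2.2.1 and featureCounts on mm10, per the submitters' processing notes. The strand setting and the handling of multiply mapped reads were not given in the sources used here.

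Transcripts were matched to genes (45692 of 45843 in the wound table through RefSeq, 34 through GENCODE). The 117 unmatched ones, 0.187% of the wound counts and 0.514% of the BMDM counts, were left out. For each gene, the transcript with the most CPM over all libraries of the table was kept. Lengths and exon overlaps came from GENCODE M21 (GRCm38).

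Each source was fitted alone in R 4.3.3 with edgeR 4.0.16 (filterByExpr at 10 counts and a total of 15, TMM, robust quasi-likelihood F test), with Benjamini-Hochberg adjustment over all genes tested and a threshold of 0.05. Wound libraries were fitted with genotype and BMDM with batch and genotype. The biological coefficient of variation was 0.133 in wound libraries and 0.279 in BMDM, with 10 and 3 residual degrees of freedom. Same-numbered BMDM libraries deviated together (correlations of 0.201, 0.115 and 0.188). The labels put replicates 1 and 2 of both genotypes in the same batch and replicate 3 in another. The main BMDM fit thus held batch but not replicate number. The scripts were tested on simulated data.

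The members and gene lists were chosen with earlier results of these data known. All 33 members are named, with the sarcomeric myosin heavy chains, the 2 genes of each other muscle list with the smallest adjusted p, and the most abundant gene of each cell type list plus Adgre1, Adipoq, Ucp1 and Pax7. Further genes were named after their values were seen, such as the other called muscle genes, the other actins and the antisense partners.

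Alternatives were RLE size factors, no filter, a filter at 1 CPM, DESeq2 1.42.0, limma-voom (limma 3.58.1) with quality weights, the sum over transcripts, a replicate block, no batch term and leaving out each library.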

Additional observations from a re-analysis of the deposited data

Results flagged for a closer look

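In each genotype, the highest and lowest wound library of every gene was compared with the rest of its group. Of 66 groups of 6 libraries, 7 held a library farther from its neighbour than Dixon's 95% limit allows, and chance flags about 1 in 20 groups.

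WT replicate 3 was such a library for 3 fast fibre genes. It held 3.64 CPM of Myh1, against 1.12 to 2.04 CPM in the other WT libraries. It held 5.65 CPM of Tnnc2 against 2.63 to 3.56 CPM, and 5.89 CPM of Actn3 against 4.00 to 4.51 CPM. The other high WT libraries were replicate 2 for Mybpc2, at 3.46 CPM against 1.25 to 2.05 CPM, and replicate 5 for Casq1, at 2.01 CPM against 0.378 to 0.988 CPM.

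Among the T166A libraries, replicate 3 was high for Tnni1, at 0.957 CPM against 0.531 to 0.655 CPM, and replicate 4 for Tnnc1, at 1.31 CPM against 0.327 to 0.663 CPM. Both are slow troponin genes of low level.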

How the results depend on the processing

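Of the 21 genes that fell, 20 were called under every alternative that tested them, and the exception was Eno3. The genes Ampd1, Casq1, Mybpc1, Pygm, Tnni1 and Ttn were called under none. The count of members lower was 17 (of 24 tested) to 24 over the alternatives, and 20 to 24 with each library left out. The count higher was 1, Des, by limma-voom and with the replicate block, and 0 to 1 with a library left out. Ttn changed sign, to -0.0082 by limma-voom, -0.020 without T166A replicate 2 and -0.0041 without T166A replicate 3, with up to 0.15 when other libraries were left out, and never passed.

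The replicate block called 22 members lower, but same-numbered wound libraries did not deviate together (correlations of -0.046 to 0.0906), so the numbers are not read as pairs. Of the other muscle genes, 7 were lower with the filter at 1 CPM, where 48 were tested, and 8 (without WT replicate 5) to 13 with a library left out. In BMDM the genes called higher and lower were 84 and 21 with no filter, 253 and 147 by DESeq2, 148 and 29 by limma-voom and 0 and 0 without a batch term or with summed transcripts. The number lower was 2 with RLE, with the filter at 1 CPM and with the replicate block. With a library left out, 0 to 18 were higher and 0 to 8 lower. With transcripts summed, the median slow share was 7.65% in WT and 11.1% in T166A for troponin T, 40.1% and 44.4% for troponin I, and 70.0% in WT for myosin binding protein C. Numbers of listed transcripts differ within these families, with 17 for Tnnt3 and 4 for Tnnt1, and 2 for Tnni1 and 1 for Tnni2. Mybpc1 has 2 and Mybpc2 has 1. The cause of these shifts, such as reads counted again for each transcript, was not tested. At 2 to 20 reads per library, genes such as Pvalb and Myh2 are limited by depth.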
